A study of Mus musculus with 6 samples.

Results

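Nodal and activin signalling was described through 9 genes, taken by symbol from a list of 10. These were Nodal, Tdgf1, Acvr1b, Acvr2a, Acvr2b, Smad3, Lefty1, Lefty2 and Skil, of 18312 genes in the table. Smad2, the 10th, is not analysed here. The study looked for mRNAs bound by the decay factors Brf1 (gene Zfp36l1) and Brf2 (gene Zfp36l2), which recognise AU-rich elements in 3′ untranslated regions. It used wild-type E14 embryonic stem cells, a mouse line of 129/Ola background kept in 15% serum with 1000 U/ml LIF. Its 6 libraries were 2 of RNA precipitated from cytoplasmic extract with an anti-Brf1/2 antibody, 2 precipitated with non-specific rabbit IgG and 2 of total RNA. No animals, transgenes or treatments entered the design. All groups share 1 cell line, and nothing in the labels says that the 2 libraries of a group came from separate cultures.

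The table holds 1 profile of 22625281 counts. No column names a library, so the profile belongs to no group here. No comparison between the Brf precipitate, the IgG control and total RNA was therefore made, and no value below measures binding. Since it may come from precipitated RNA, a level may also differ from that in the cells. Levels are given as FPKM, the fragments scaled to the effective length and to the total count of the table. Effective length is the transcript length after the corrections of the authors' quantification program. The interval beside each FPKM is the authors' own and spans 2 counting SD on either side, so it covers counting error only. The labelled cell type was checked on 5 pluripotency markers, which lay between 40.6 FPKM (Esrrb) and 605 FPKM (Pou5f1). Of 4 measured fibroblast markers, 1 reached 1 FPKM, and of 4 measured primitive endoderm markers also 1. All 4 primed epiblast markers and 3 of 4 neural markers did, against 56.0% of all genes. The highest fibroblast marker was Thy1 at 3.74 FPKM, and the highest primitive endoderm marker was Dab2 at 3.05. Among the primed epiblast markers Dnmt3b was the highest at 106 FPKM, which is above Esrrb. Tubb3 was the highest neural marker, at 22.9 FPKM.

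Nodal is a secreted TGF-beta family ligand that patterns the early embryo and keeps the epiblast pluripotent. With the co-receptor Cripto (gene Tdgf1) it binds type II receptors (Acvr2a, Acvr2b) and the type I receptor Alk4 (Acvr1b). Activins use the same receptors without Cripto. The activated type I receptor phosphorylates Smad2 and Smad3, which enter the nucleus with Smad4. Lefty1 and Lefty2 are secreted inhibitors that the pathway itself induces, and SnoN (Skil) represses Smad targets in the nucleus.

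Because Brf1 and Brf2 bind AU-rich elements, the heptamer TATTTAT was looked up in the longest annotated 3′ untranslated region of each gene (GENCODE M21, build GRCm38, transcript strand). It was found 6 times, in 5 of the 9 genes, against 29.5% of 16288 genes with such a region. Among genes with regions about as long as those of Acvr1b, Acvr2a, Smad3 and Skil, between 51.0% and 60.7% held it. The sequences below show each match in capitals with 10 bases on either side.
Nodal, chr10:61424944-61424970, plus strand: tatatatatgTATTTATttttgatgcc
Acvr1b, chr15:101212989-101213015, plus strand: ttagcctttcTATTTATttcctggtgt
Acvr2a, chr2:48900787-48900813, plus strand: ttttttttccTATTTATatatataaaa
Smad3 site 1, chr9:63647335-63647361, minus strand: gccgctttcgTATTTATgtaacaattc
Smad3 site 2, chr9:63646892-63646918, minus strand: aaaaagcatgTATTTATagtgttttag
Skil, chr3:31122431-31122457, plus strand: ttttggattaTATTTATtgaaacatga
All 6 windows lie in 3′ untranslated exons. The Nodal, Acvr2a and Skil windows were the richest in A and T, at 81.5%, 92.6% and 81.5%, while the first Smad3 window had 63.0%. None of the 6 extends to the longer nonamer TTATTTATT, which only 8.15% of all genes with such a region hold. The other 4 genes (Tdgf1, Lefty1, Lefty2 and Acvr2b) held no match. A match is a string of letters and not a shown binding site.

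The ligand Nodal had 1514 counts (exact Poisson 95% interval 1439 to 1592). Its level was 22.0 FPKM (20.9 to 23.2), rank 2834 of 18312. That placed it in the middle of the 9 genes, below Lefty1 and Lefty2 and above Acvr1b, Acvr2a and Acvr2b. Among 11 ligands of the family, 5 reached 1 FPKM (7 on the model length), against 56.0% of all genes (58.2% on the model length). Gdf3, a ligand that also signals through Cripto, had 23.5 FPKM (22.2 to 24.8), and the ratio of Nodal to Gdf3 was 0.936 (exact 95% interval 0.870 to 1.01), so they did not differ beyond counting error. On the model length of the transcripts, without the corrections, that ratio was 1.12 (1.04 to 1.20). The activin beta A subunit Inhba had 0.201 FPKM from 11 counts, and the beta B subunit Inhbb had 1.61 FPKM. Gdf1, a partner of Nodal in heterodimers, had 0.936 FPKM, and Mstn had 0 counts, which allows up to 0.0631 FPKM. The convertases Furin and Pcsk6, which cleave the Nodal precursor, had 5.69 and 3.30 FPKM.

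Tdgf1, the co-receptor, was the most abundant of the 9 genes. It had 23731 counts (23430 to 24035), which is 0.105% of all counts (Wilson 95% interval 0.104 to 0.106) and 50.9% of the 46606 counts of the 9 genes together. Its level was 466 FPKM (460 to 472), rank 125 of 18312. This was 0.770 times the level of Pou5f1 (0.757 to 0.784) and 21.2 times that of Nodal (20.1 to 22.3). On the model length these ratios were 0.592 (0.582 to 0.602) and 17.0 (16.2 to 18.0). Cfc1, the other EGF-CFC co-receptor, had 0.585 FPKM from 15 counts. That is below the median over all genes, 1.94 FPKM.

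The receptors and Smad3 were the lowest of the 9 genes. Acvr1b, the type I receptor, had 1058 counts and 7.26 FPKM (6.81 to 7.70). The type II receptor Acvr2a had 670 counts and 5.68 FPKM (5.24 to 6.11). Its paralog Acvr2b had 500 counts and 4.47 FPKM (4.07 to 4.87). Smad3, the signal transducer, had 587 counts and 3.64 FPKM (3.34 to 3.94). The 4 genes held ranks 5977 to 7819, and their levels sat within 1.99-fold of each other (Acvr1b over Smad3, 1.80 to 2.21). On the model length that ratio was 2.80 (2.53 to 3.10). Tdgf1 exceeded these 4 genes by between 64.3-fold (over Acvr1b, 60.4 to 68.4) and 128-fold (over Smad3, 118 to 139). On the model length Tdgf1 exceeded Acvr1b by 38.1-fold, Acvr2b by 41.9-fold and Smad3 by 107-fold.

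**Figure D1:**
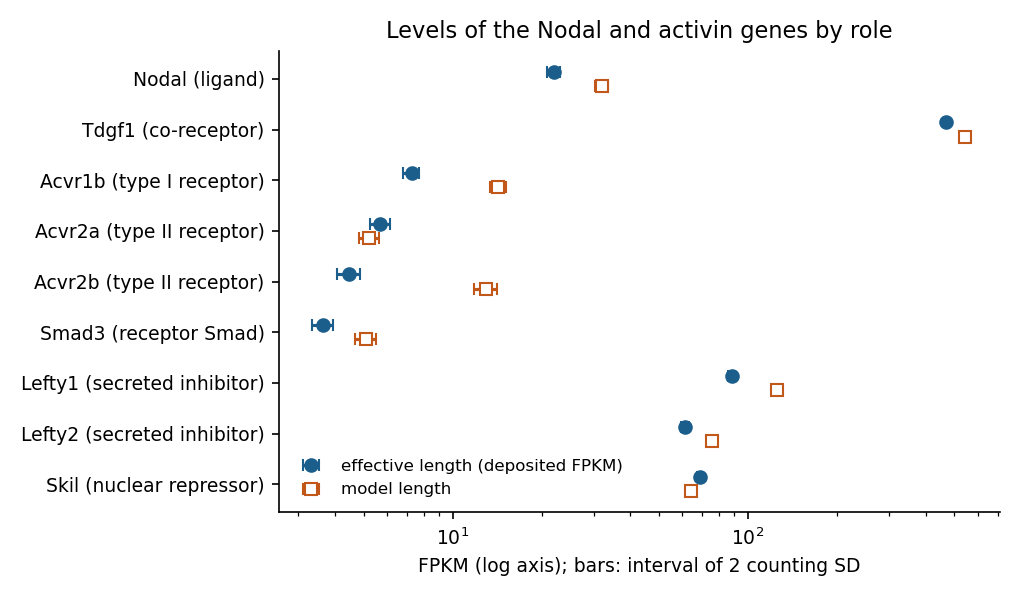
Level of each of the 9 genes in FPKM (log axis), by role. Filled circles use the effective length of the deposited table and open squares the model length, with bars of 2 counting SD; Tdgf1 stands at 466 FPKM, and Smad3, the lowest, at 3.64.

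Tgfbr1, the type I receptor for TGF-beta, was the highest of the other TGF-beta, activin and Nodal receptors listed, with 15.7 FPKM (14.9 to 16.5). Acvr1b was at 0.462 times its level (0.427 to 0.499), but on the model length at 1.16 times (1.07 to 1.25), so the direction depends on the length. Acvr1c (Alk7), an alternative Nodal receptor, had 0.209 FPKM from 39 counts. Tgfbr2, the type II receptor for TGF-beta, had 0.540 FPKM from 84 counts. Of the nuclear partners, Foxh1, the forkhead factor that brings Smad2 and Smad3 to DNA, had 32.2 FPKM. Trim33, a chromatin reader that binds these Smads, had 18.9 FPKM, and the acetyltransferases Ep300 and Crebbp had 19.7 and 4.26 FPKM.

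Of 6 secreted inhibitors measured, Lefty1 and Lefty2 were the highest. Lefty1 had 4544 counts (4413 to 4678) and 87.9 FPKM (85.3 to 90.5), rank 664. Lefty2 had 4220 counts (4094 to 4349) and 61.0 FPKM (59.2 to 62.9), rank 1013. Lefty1 was thus 1.44 times Lefty2 (1.38 to 1.50) per length, although its counts alone were only 1.08 times higher. The sum of the Lefty genes, 149 FPKM, was 6.76 times the level of Nodal. Other extracellular inhibitors were lower. Fst (follistatin), which binds activin, had 13.8 FPKM and its relative Fstl3 had 1.16, while the Nodal antagonists Dand5 and Cer1 had 0.813 and 0.772 FPKM.

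Lefty1 and Lefty2 are neighbouring genes with closely similar coding regions, which bears on how their counts are divided. The coding regions of the transcripts nearest in length to the models have 1107 bases each. They were identical at 1017 aligned bases (91.9%), and the 368 residues they encode were identical at 331 (89.9%). The longest exact stretch shared by the whole transcripts has 140 bases. A read that falls wholly inside this or another shared stretch cannot be told apart between these genes. Of all 50-base words of the Lefty1 transcript, 17.9% (281 of 1571) also occur in Lefty2. Words shared with other genes made up 11.6% of the Lefty2 transcript (282 of 2424), all but 1 of them with Lefty1. In the table the unique count of a gene always equals its total, so no trace is kept of how shared reads were handled, and the Lefty ratio is uncertain to that extent.

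Tdgf1 shared 12.5% of its 50-base words (236 of 1883) with the processed pseudogene Tdgf1-ps1, a symbol not found among the 18312 genes. A read that falls wholly inside such a shared stretch cannot be told apart between Tdgf1 and the pseudogene. The Tdgf1 level is uncertain to that extent, and how much this amounts to was not tested. Acvr2a shared 7.04% of its words (397 of 5637) with Orc4, a replication gene on the opposite strand whose exons overlap it by 446 bases. Orc4 had 1431 counts, and because strand handling is not stated, reads in that overlap cannot be told apart. Nodal, Acvr1b, Acvr2b, Smad3 and Skil shared no 50-base word with the transcripts of another gene. For the pair of type II receptors, coding identity was 66.8% over 1532 aligned bases, and the longest stretch shared by the whole transcripts was 14 bases.

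Skil, the nuclear repressor, had the second highest count, 9782 (9589 to 9978). Its model is the longest of the 9 at 6717 nt, and its level was 68.8 FPKM (67.4 to 70.1), rank 875. It lay between the levels of Lefty1 and Lefty2, at 1.13 times Lefty2 (1.09 to 1.17). On the model length it was below both, at 0.849 times Lefty2 (0.819 to 0.881). Skil was 3.93 times its paralog Ski (3.77 to 4.10), which had 17.5 FPKM. Rnf111 (Arkadia), the ubiquitin ligase that degrades SnoN, had 9.46 FPKM, and the corepressor Tgif2 had 20.3. At the membrane and in the cytoplasm, the Smad phosphatase Ppm1a had 39.1 FPKM, the ubiquitin ligases Smurf2 and Smurf1 had 13.0 and 5.13, and the Smad-sequestering protein Pmepa1 had 3.17.

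**Figure D2:**
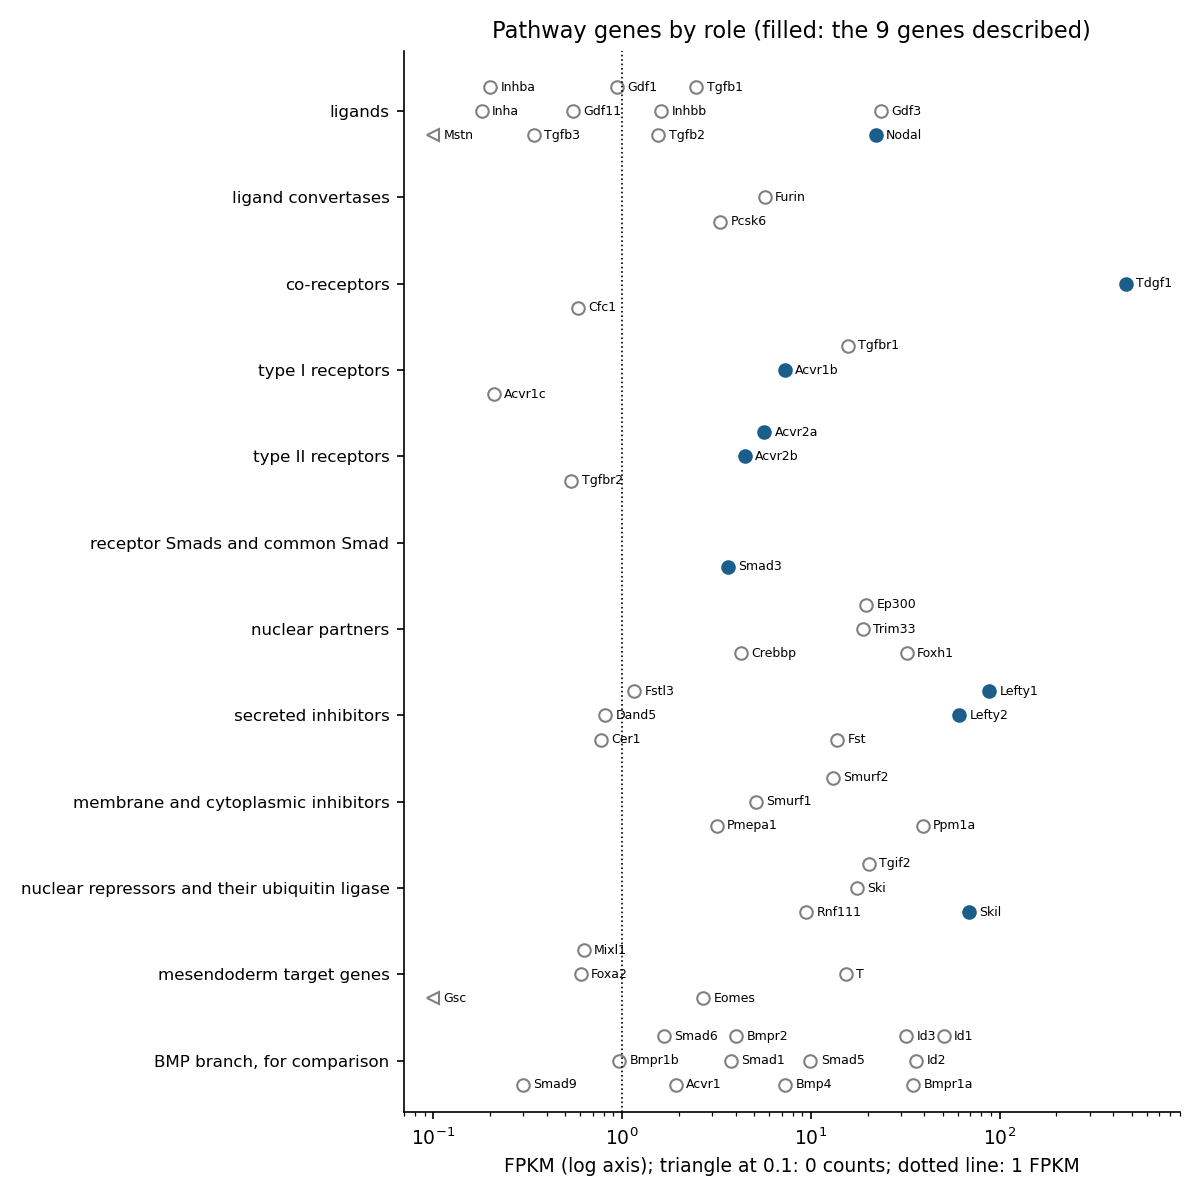
FPKM (log axis) of every measured gene of the pathway lists and of the BMP branch, by role; filled points are the 9 genes described, open points the others, triangles genes with 0 counts, and the dotted line marks 1 FPKM. Lefty1 (87.9) and Skil (68.8) lie to the right of the type I and type II receptors.

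Every one of the 9 genes reached 1 FPKM and 7 reached 5, Acvr2b and Smad3 being the exceptions. Of all genes in the table, 56.0% reached 1 FPKM and 38.3% reached 5. On the model length all 9 reached 1 FPKM and also 5 FPKM, against 58.2% and 42.2% of all genes. All 9 had at least 10 counts, as did 70.6% of all genes. The median of the 9 was 22.0 FPKM, against 1.94 over all genes and 9.66 over genes at 1 FPKM or more. The other 36 measured genes of the Nodal and activin lists had a median of 2.58 FPKM, and 22 of them reached 1 FPKM. The members had been picked with results of these data known, so this gap describes the choice as well as the pathway.

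**Figure D3:**
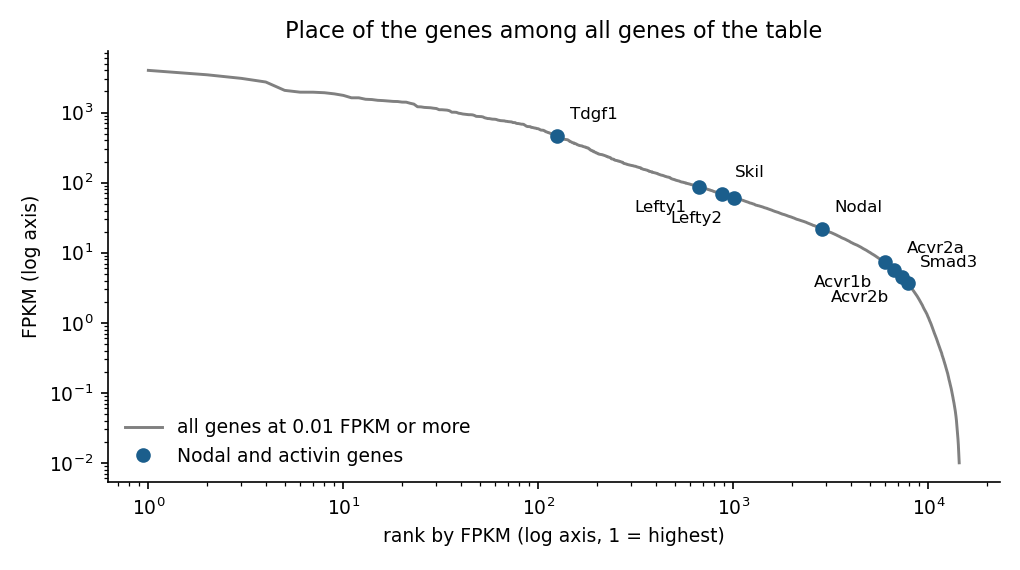
FPKM against rank for all genes at 0.01 FPKM or more (grey line, both axes log), with the 9 genes as points. Tdgf1 is at rank 125, Lefty1, Skil and Lefty2 lie between ranks 664 and 1013, and the receptors and Smad3 lie between ranks 5977 and 7819.

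Genes that Nodal signalling turns on in mesendoderm were mixed. Of 5 measured, 2 reached 1 FPKM, against 56.0% of all genes. The mesoderm factor T (brachyury) had 15.4 FPKM (14.4 to 16.3) and the T-box factor Eomes had 2.68. The homeobox factor Mixl1 and the endoderm factor Foxa2 had 0.625 and 0.603 FPKM. Gsc had 0 counts, which allows up to 0.0720 FPKM. The pathway's own feedback inhibitors Lefty1 and Lefty2 were above its mesendoderm targets in this profile, with Lefty2, the lower one, at 61.0 FPKM against 15.4 for T.

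The BMP branch uses other receptors and Smads of the same superfamily and was set beside these genes, without a test. Nodal was 3.01 times Bmp4 (2.72 to 3.33), which had 7.33 FPKM. Acvr1b was 0.209 times the BMP type I receptor Bmpr1a (0.195 to 0.224), at 34.8 FPKM, and 3.78 times Acvr1 (3.25 to 4.40). On the model length Acvr1b over Bmpr1a was 0.518 and Smad3 over Smad5 was 0.556. Acvr2a was 1.41 times the type II receptor Bmpr2 (1.24 to 1.61), but on the model length that ratio was 1.10 with an interval across 1 (0.971 to 1.25). Smad3 did not differ from Smad1 beyond counting error (ratio 0.965, 0.848 to 1.10) and was 0.366 times Smad5 (0.332 to 0.404). The BMP targets Id1, Id2 and Id3 had 50.6, 36.1 and 32.1 FPKM, all below Lefty1 and Lefty2, though on the model length Id1 (78.0) passed Lefty2 (75.8).

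In order, the levels ran Tdgf1, Lefty1, Skil, Lefty2, Nodal, Acvr1b, Acvr2a, Acvr2b and Smad3. Of the 36 pairs, none had overlapping intervals, neighbours included. That order depends on the effective length. For Acvr2b the table gives a model of 1701 nt and an effective length of 4940, a ratio of 2.90, and 22 genes in all have a ratio that high or higher. For Acvr1b the ratio was 1.97, at the 95.6th percentile, against a median of 1.27 over all genes. Skil and Acvr2a were corrected the other way, with ratios of 0.936 and 0.918.

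**Figure D4:**
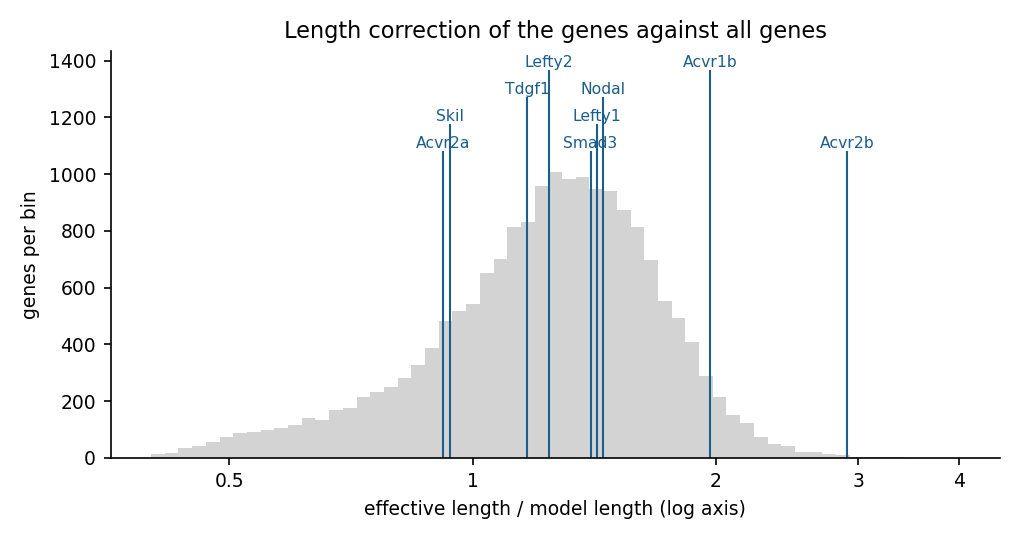
Number of genes per bin of the ratio of effective to model length (log axis) for all genes but the 46 outside 0.4 to 4, with the 9 genes as vertical lines. Acvr2b, at 2.90, and Acvr1b, at 1.97, lie to the right of most genes.

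On the model length, Acvr2b had 13.0 FPKM (11.8 to 14.2) and Acvr2a 5.21 (4.81 to 5.62), so the order of the type II receptors turned round, at a ratio of Acvr2a to Acvr2b of 0.401. Acvr1b had 14.3 FPKM (13.4 to 15.1) on that scale and overlapped Acvr2b, and Smad3, with 5.10 (4.68 to 5.52), overlapped Acvr2a. Lefty2 then had 75.8 FPKM and Skil 64.4. Tdgf1 (544), Lefty1 (125) and Nodal (32.0) kept their places.

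The models differ in how much of each 3′ untranslated region they cover. The Acvr2b model is close in length to an annotated transcript of 1729 nt with 40 nt past the stop codon, whereas the longest annotated region of that gene has 1534 nt. The Acvr1b model of 3277 nt is 1141 nt shorter than the single annotated transcript, and the Acvr1b heptamer, which starts at base 2137 of a region of 2822 nt, may lie outside the model. The other 7 models were within 16 nt of an annotated transcript. Reads from parts outside a model would not be counted for it, and how much they amount to was not tested.

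The 3′ untranslated regions themselves ranged from 425 nt in Lefty1 to 3964 nt in Skil, with a median over 16288 genes of 1063 nt. The single heptamer of Nodal starts at base 318 past the stop codon, in a region of 702 nt. Of genes whose region was within 20% of that length, 19.3% held a heptamer. The Skil match starts at base 3828 of 3964, and the Acvr2a match at base 1009 of 3481. For the long regions of Acvr1b, Acvr2a, Smad3 and Skil, between 51.0% and 60.7% of genes with regions of like length held a heptamer. Over all 16288 genes the share was 29.5%. The shorter and commoner pentamer, spelled ATTTA, was in 8 of the 9 genes, with 14 matches in Skil, 10 in Acvr2a, 5 in Acvr1b, 4 in Smad3 and 1 each in Nodal, Tdgf1, Lefty2 and Acvr2b. It was in 67.7% of all regions. Among genes with regions of like length, the share was between 95.5% and 98% for Acvr1b, Acvr2a, Smad3 and Skil. For the others it was between 45.5% (Lefty1) and 84.7% (Acvr2b). Lefty1, with the shortest region, held neither motif. Each heptamer contains a pentamer, so these counts overlap.

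**Figure D5:**
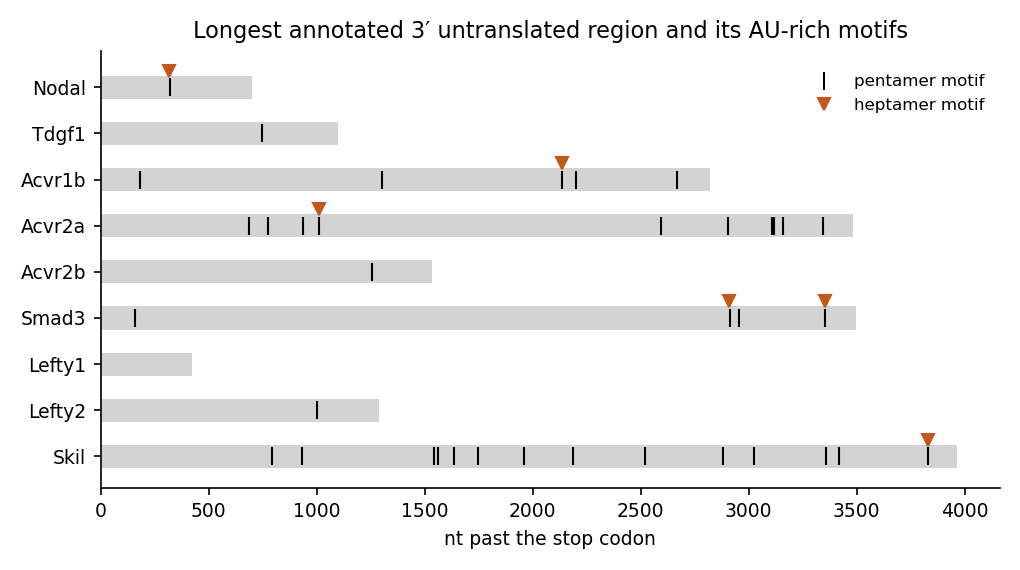
Longest annotated 3′ untranslated region of each gene (grey bar, nt past the stop codon), with pentamer matches as ticks and heptamer matches as triangles. Skil carries 14 pentamers and Acvr2a 10, while Lefty1 carries none.

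The 4 genes with the longest regions (Skil, Smad3, Acvr2a and Acvr1b) each held a heptamer. Of the other 5, only Nodal did. In level these 4 genes ranged from Skil at 68.8 FPKM to Smad3 at 3.64. Of the genes with a heptamer, only Skil lay above Nodal, and its shortest annotated region, of 378 nt, holds none. The highest gene, Tdgf1, had none in its 1101 nt, and neither did Lefty1 and Lefty2, which also lay above Nodal. A relation between heptamer and level was not tested. Whether any of these transcripts was enriched with the anti-Brf1/2 antibody was not tested here.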

How the data were processed

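The authors deposited 1 table, laid out as eXpress writes its results, per the file headers. The submitters' processing notes name CASAVA 1.8.2, Bowtie 1.1.2, eXpress 1.1.1 and mm9, without roles or settings. The table gives deposited counts per gene model (total and unique, equal in each row), estimated counts equal to them, and the authors' FPKM with bounds. FPKM was checked against count, effective length and the total of 22625281, and 1 unnamed row holding that total was left out. No column names a library. The planned group comparisons were therefore not run. A mesendoderm target gene, left out of its list and counts, and a shared sequence are not reported here. The members and lists were chosen with earlier results of these data known. The text names the members, the genes of the fixed lists, and Orc4 and Tdgf1-ps1, named after their overlap was seen.

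FPKM on the model length was recomputed with intervals of 2 counting SD. Ratios carry exact (Clopper-Pearson) 95% intervals conditional on the summed counts. All intervals and the limit of 3 counts for a count of 0 cover counting error only. Transcripts of GENCODE M21 (GRCm38) were matched by symbol, choosing the protein-coding one nearest in length. They may differ from the mm9 models. Regions past the stop codon under 50 nt were left out when the longest and shortest regions were chosen. The region of the transcript nearest in length had no such minimum, and in Acvr2b it has 40 nt. Motifs were searched on the transcript strand. Shared words of 50 bases were searched on both strands. The reads' length is not given in the sources used here. Intervals and motif counts were tested on simulated data. Scripts ran under Python 3.11.15 with scipy 1.17.1, pandas 2.3.3, matplotlib 3.10.9 and numpy 2.4.6.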

Additional observations from a re-analysis of the deposited data

How the results depend on the processing

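No paired analysis was possible because the columns carry no replicate number or group, and leaving out libraries, other tests and other filters for group comparisons were not run for the same reason. When levels were computed on the model length instead, every one of the 9 levels moved beyond its interval: Tdgf1 to 544, Lefty1 to 125, Lefty2 to 75.8, Skil to 64.4, Nodal to 32.0, Acvr1b to 14.3, Acvr2b to 13.0, Acvr2a to 5.21 and Smad3 to 5.10 FPKM. The median over all genes moved too, from 1.94 to 2.58 FPKM, so the shift is not particular to these 9 genes. Overlapping pairs of the 9 genes then numbered 2 in place of 0. The same change turned round Skil over Lefty2 (0.849), Acvr2a over Acvr2b (0.401) and Acvr1b over Tgfbr1 (1.16). Nodal over Gdf3, undecided on the effective length, was 1.12 (1.04 to 1.20). Counts with no length turned round Lefty1 over Skil (0.465) and Acvr2b over Smad3 (0.852). These turns follow from the lengths alone, since the counts are the same. All 9 genes stayed at the threshold with the model length or with a minimum of 10 counts, and 7 did at 5 FPKM (all 9 at 5 FPKM on the model length, a combination added after the data were seen). Of the 45 measured genes of the Nodal and activin lists, 31 reached 1 FPKM, 21 reached 5, 33 reached 1 on the model length and 42 had 10 counts. Over all genes these shares were 56.0%, 38.3%, 58.2% and 70.6%. The heptamer was in 4 genes with the shortest annotated region, which in Skil has 378 nt, and in 5 with the region of the transcript nearest in length, a choice made after the data were seen. With 1 profile, the spread between samples is unknown.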
